A study of Mus musculus with 25 samples.

Results

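Expression of 9 genes of hepatic gluconeogenesis and glycogen control was followed in mouse liver during concanavalin A hepatitis, with and without an agonist of the prostaglandin D2 receptor DP1. The genes were chosen by name, namely G6pc, Pck1, Fbp1, Gys2, Pygl, Ppp1r3b, Ppp1r3c, Ppp1r3g and Slc2a2. The choice was made with earlier results of these data known. Counts and medians of the set beside those of all genes therefore describe the set and do not test it. The genes were found through the RefSeq names that the scanner files give to probes. All 9 were among the 15101 genes tested in the whole series, and they were read by 10 of its 55681 probes, Gys2 by 2 probes and each other gene by 1.

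Liver RNA was hybridised to 1 single-colour Agilent array per mouse, in 5 groups of 5 female C57BL/6NcrSlc mice, for 25 arrays in all. In 2 groups the mice received 10 mg/kg of concanavalin A (ConA), a jack bean lectin used to provoke T-cell driven liver injury. After 15 min they received 1 mg/kg of the DP1 agonist BW245C, and livers were taken at 3 hr or at 24 hr. In another 2 groups ConA was followed by vehicle after the same delay, with livers taken at the same times. The remaining mice were untreated and received neither ConA nor vehicle, so a difference between ConA + vehicle and untreated livers holds the effect of the vehicle injection too. No group received BW245C without ConA.

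Gluconeogenesis makes new glucose from lactate, amino acids and glycerol. Pck1, the cytosolic phosphoenolpyruvate carboxykinase, makes phosphoenolpyruvate from oxaloacetate early in the path, Fbp1, fructose bisphosphatase, acts later, and G6pc, the catalytic subunit of glucose 6-phosphatase, releases free glucose at its end. Gys2 is the liver glycogen synthase and Pygl the liver glycogen phosphorylase, and the same glucose 6-phosphatase finishes glycogen breakdown. Ppp1r3b, Ppp1r3c and Ppp1r3g encode regulatory subunits that bring protein phosphatase 1 to glycogen, where it activates the synthase and inactivates the phosphorylase. Slc2a2, also called GLUT2, carries glucose across the hepatocyte membrane. In liver, glucagon, acting through cAMP, and glucocorticoids raise transcription of G6pc and Pck1, and insulin lowers it.

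A level is given below as the log2 of the processed signal of the brightest probe minus the 75th percentile of its array, so that 1 unit is a doubling, and levels are compared only within a gene. Changes are log2 differences between group means ± their standard error from a limma fit to all 25 arrays, and a call means an adjusted p under 0.05, with the adjustment made over all 15101 genes. Every gene but Ppp1r3g was well above background on all 25 arrays. Ppp1r3g was well above background on 4 of 5 ConA + BW245C 24 hr arrays, on 3 of 5 ConA + vehicle 3 hr arrays and on all arrays of the other groups. The mice are the replicates, and precision is limited by their number.

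Groups and the 5 slides were not crossed evenly. All 5 ConA + BW245C 3 hr arrays shared slide 3 with 2 of the ConA + vehicle 3 hr arrays, slide 4 held 3 ConA + BW245C and 4 ConA + vehicle 24 hr arrays, and slides 1 and 2 held all 5 untreated arrays with 3 ConA + vehicle 3 hr arrays. No slide held ConA + vehicle 24 hr and untreated arrays together. Hepatocyte markers bore out the tissue on the labels: 9 of the 10 listed were measured, and all 9 were well above background on all arrays of every group.

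The upstream sequence is shown for 3 of the 4 genes called higher with BW245C at 3 hr, G6pc, Pck1 and Ppp1r3g. The call of Pck1 was narrow and did not hold under several settings, and Ppp1r3b, the remaining called gene, had no sequence. Each run is the 250 bases before the start of transcription in RefSeq, build GRCm38.p6, written 5′ to 3′ on the strand of the gene, which is the plus strand for all 3, at chr11:101367466-101367715 for G6pc, chr2:173152823-173153072 for Pck1 and chr13:35967656-35967905 for Ppp1r3g. Capitals mark matches, on either strand, to the cAMP response element variant TTACGTNA, to the shorter core TGACG and to the insulin response core TGTTTTG.
G6pc: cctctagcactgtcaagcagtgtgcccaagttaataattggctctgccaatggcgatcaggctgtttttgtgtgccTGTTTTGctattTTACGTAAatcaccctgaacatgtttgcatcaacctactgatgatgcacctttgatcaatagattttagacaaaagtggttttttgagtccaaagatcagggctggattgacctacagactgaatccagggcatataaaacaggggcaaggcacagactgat
Pck1: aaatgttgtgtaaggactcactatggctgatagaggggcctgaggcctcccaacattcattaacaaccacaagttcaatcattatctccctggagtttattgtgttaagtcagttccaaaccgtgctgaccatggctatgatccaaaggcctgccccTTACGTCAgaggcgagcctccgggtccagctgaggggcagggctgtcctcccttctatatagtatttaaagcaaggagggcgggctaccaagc
Ppp1r3g: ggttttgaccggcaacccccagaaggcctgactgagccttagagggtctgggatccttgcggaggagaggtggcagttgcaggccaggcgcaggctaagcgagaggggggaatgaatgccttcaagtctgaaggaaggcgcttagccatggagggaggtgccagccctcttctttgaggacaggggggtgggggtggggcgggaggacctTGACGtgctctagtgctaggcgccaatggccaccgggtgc

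Of the 9 genes, 7 had an upstream sequence in the RefSeq table, and Gys2 and Ppp1r3b were not in it. The variant TTACGTNA was found in 2 of the 7 windows, once each, at 162 to 155 bases before the start of G6pc and at 93 to 86 bases before the start of Pck1. The same letters occurred in 259 of the 32851 upstream windows of that length in the RefSeq table, or 0.788%, and shares of all windows below refer to these. In Pck1 the match also holds the core TGACG, read on the opposite strand. That core was present in 3 of the 7 windows, those of Pck1, Pygl and Ppp1r3g, and in 17.8% of all windows. TGTTTTG was found in 1 of the 7, at 174 to 168 bases before the start of G6pc, and in 5.56% of all windows. The palindrome TGACGTCA, found in 1.55% of all windows, the FOXO core GTAAACA (3.17%), TGTTCT (16.1%) and the STAT pattern TTCNNNGAA (7.02%) had no match in the 7 windows. TATAAA lay 29 to 24 bases before the start of G6pc and occurred in 12.4% of all windows. A match describes the letters and does not show that a factor binds there.

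The early effect of ConA with vehicle was read at 3 hr, against untreated livers. G6pc, Ppp1r3g and Ppp1r3c fell steeply, Slc2a2 and Pygl fell by less, and Pck1, Fbp1, Gys2 and Ppp1r3b were not called. In all 5 of the 9 genes fell and none rose, where 37% of all genes tested fell and 25% rose. The median change of the 9 genes was -0.50, against -0.09 for all genes. Groups did not overlap in 5 of the 9, the same count as that of the called genes, against 47.4% of all genes. With so many genes called over the whole array, the counts alone do not set the 9 genes apart.

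G6pc levels were -1.69, -1.73, -0.95, -1.55 and -0.93 in the 5 ConA + vehicle livers at 3 hr, against 6.36, 7.25, 6.98, 7.49 and 7.06 in the 5 untreated livers. Each ConA + vehicle liver lay far below the lowest untreated liver. The change was -8.40 ± 0.48, or 337-fold lower (adjusted p = 6.51e-13). Within slide 1, with 1 ConA + vehicle array and 4 untreated arrays, it was 242-fold. Within slide 2, with 2 ConA + vehicle arrays and 1 untreated array, it was 497-fold. The other genes of the gluconeogenic path in the set were not called. Pck1 differed by -0.47 ± 0.27 (adjusted p = 0.131, 95% interval -1.02 to 0.08) and Fbp1 by -0.16 ± 0.14 (adjusted p = 0.317, interval -0.45 to 0.13). Both intervals include 0 and both reach further below it than above. Fbp1 was called lower with quantile normalization (-0.39, adjusted p = 0.00532) and with the series matrix values (-0.27, adjusted p = 0.0406).

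Among the subunits that bring phosphatase 1 to glycogen, Ppp1r3g had levels of -5.58, -3.88, -3.18, -4.47 and -3.99 in ConA + vehicle livers at 3 hr, against -0.60, 0.69, 0.97, -2.26 and -0.42 in untreated livers. The groups did not overlap, although untreated replicate 4 stood well below the other untreated livers. The change was -3.90 ± 0.52, or 14.9-fold lower (adjusted p = 7.95e-07), and replicates 1 and 4 of ConA + vehicle were not well above background. The size of the fold varied with the arrays and the background correction. It was 6.07-fold within slide 1, which held 1 ConA + vehicle array. It was 42.6-fold within slide 2, which held ConA + vehicle replicates 1 and 2 and 1 untreated array. It was 9.86-fold without slide 2 (adjusted p = 1.33e-04) and 3.47-fold with the normexp background correction (adjusted p = 9.47e-06). Ppp1r3c stood at 0.95, 1.23, 2.52, 1.57 and 1.71 in ConA + vehicle livers, against 4.06, 4.51, 4.19, 4.05 and 3.86 in untreated livers, again with no overlap. Ppp1r3c was 5.82-fold lower (-2.54 ± 0.33, adjusted p = 3.78e-07). On the same few arrays as for Ppp1r3g, it was 2.87-fold within slide 1 and 10.8-fold within slide 2. Ppp1r3b, the subunit best known in liver, differed by -0.02 ± 0.16 (adjusted p = 0.915, interval -0.35 to 0.31).

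Slc2a2 was 1.69-fold lower at 3 hr (-0.75 ± 0.22, adjusted p = 0.00435), with 4.29, 4.51, 4.96, 4.67 and 5.11 in ConA + vehicle livers and 5.20, 5.56, 5.51, 5.54 and 5.49 in untreated livers. All 5 ConA + vehicle livers lay below the untreated ones, the highest of them by little. Without slide 2 the change was -0.52 and was not called (adjusted p = 0.0936). Pygl was 1.41-fold lower (-0.50 ± 0.12, adjusted p = 0.00112), from 7.18 to 7.57 in ConA + vehicle livers against 7.67 to 8.07 in untreated livers. Gys2 differed by -0.09 ± 0.14 (adjusted p = 0.564, interval -0.37 to 0.19), and its second probe by -0.06.

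Markers of other cells moved in the same comparison. Neutrophil markers were called higher in 7 of 10, with a median change of 5.55 on the log2 scale over the 10. Csf3r (0.14), Camp (0.65) and Mmp9 (0.79) were not called. Summed levels were 178 to 298 in ConA + vehicle livers at 3 hr against 116 to 128 in untreated livers. In untreated livers Cxcr2, Mmp8, Ltf and Ngp were not well above background on any array. A sum weighs bright markers most, so here and below it can move by less than the median marker. Hepatocyte markers were called higher in 5 of 9, by most in Hpx (1.09) and Fgb (0.75), and lower in none. Their summed levels were 7552 to 9699 in ConA + vehicle livers against 6066 to 7077 in untreated livers. The part of these marker shifts in the changes above was not tested. The level of a gene in whole liver depends on how many hepatocytes are in the piece and on the RNA in each, and fewer cells of a type and less RNA per cell cannot be told apart in these samples.

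**Figure D1:**
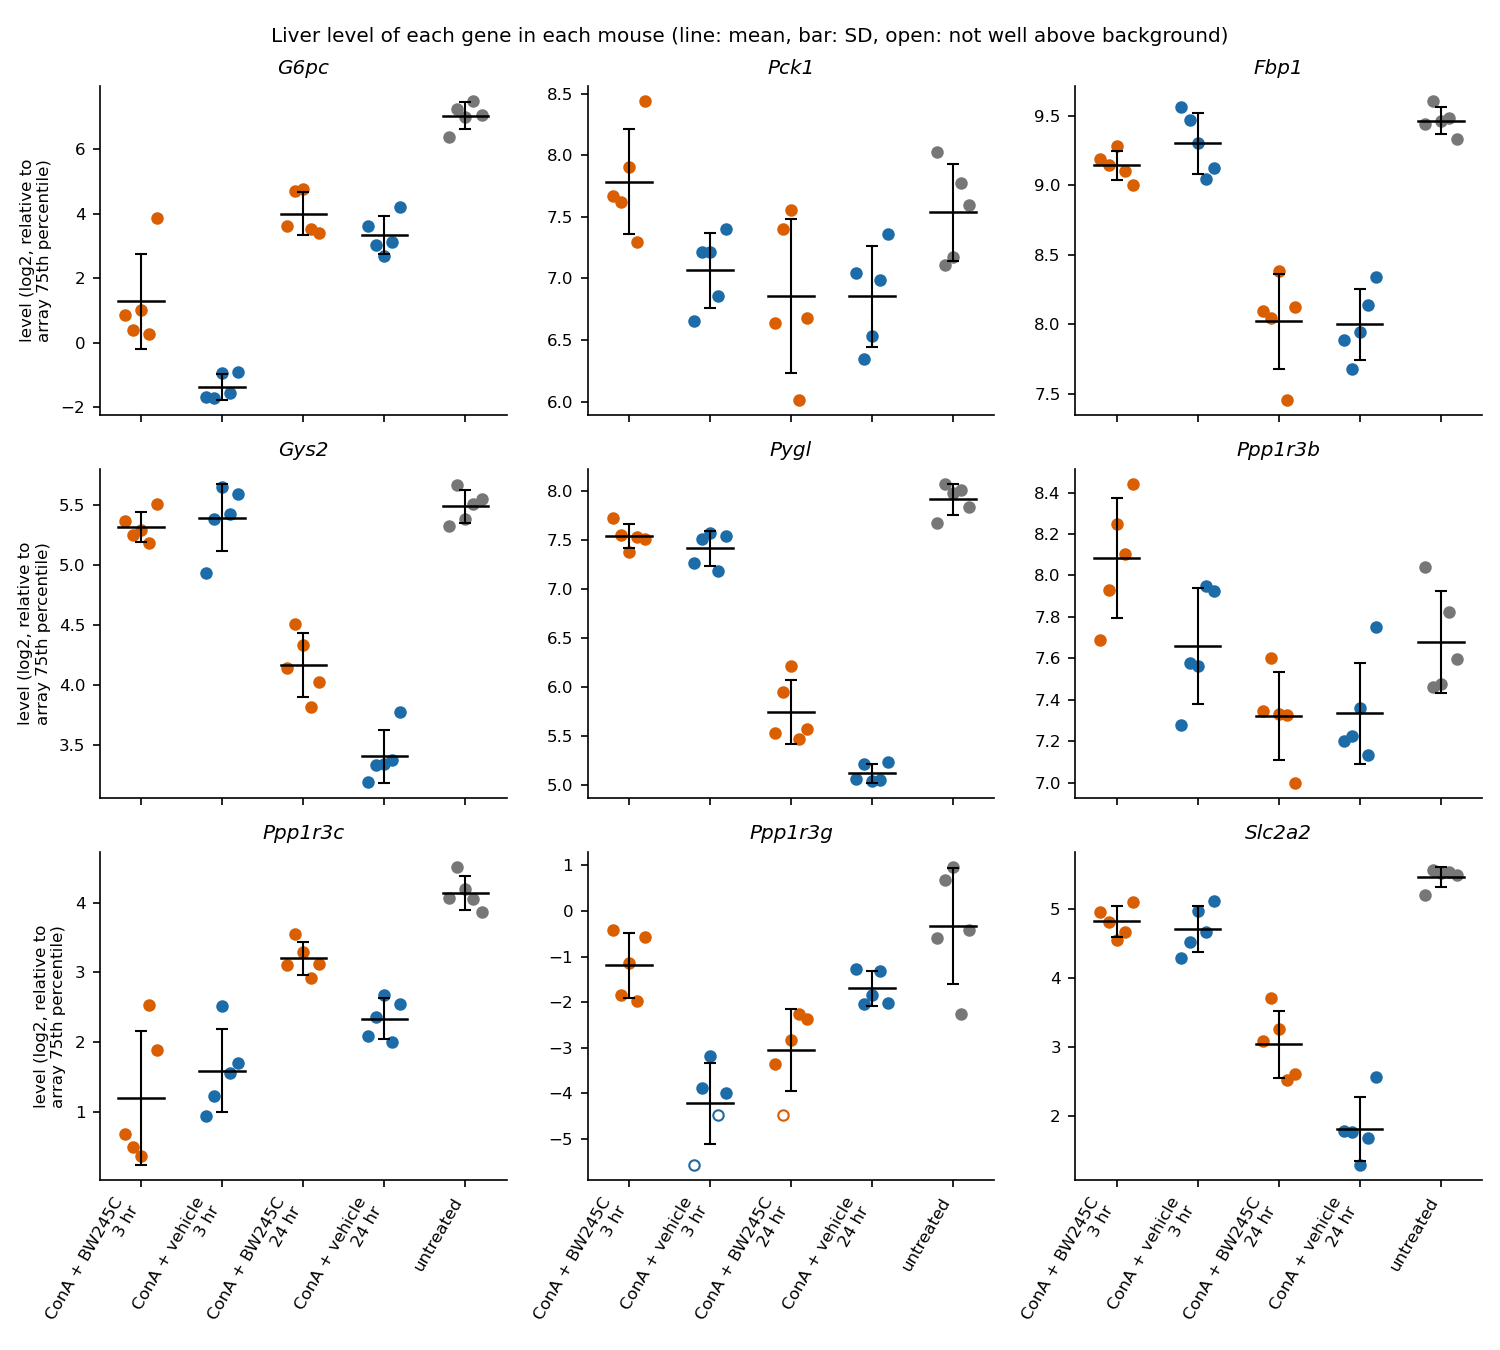
Level of each of the 9 genes in each mouse (log2 of the signal relative to the 75th percentile of the array) for ConA + BW245C and ConA + vehicle at 3 hr, the same 2 treatments at 24 hr, and untreated livers; points are mice, lines are means, bars are SD (n = 5), and open points were not well above background. G6pc and Ppp1r3g of ConA + BW245C livers at 3 hr lie above all ConA + vehicle livers at 3 hr, and Gys2, Pygl and Slc2a2 are lowest in ConA + vehicle livers at 24 hr.

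The later effect of ConA with vehicle was read at 24 hr, against the same untreated livers. Nearly the whole set was then lower. In all 8 of the 9 genes fell and none rose, where 39.1% of all genes fell and 29.8% rose, and the median change was -1.80 for the 9 genes against -0.08 for all genes. Groups did not overlap in 6 of the 9, where 64% of all genes had groups that did not overlap.

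Slc2a2 had levels of 1.78, 1.76, 1.28, 1.68 and 2.56 in ConA + vehicle livers at 24 hr, against 5.20 to 5.56 in untreated livers, with no overlap. The transcript of this glucose transporter was 12.5-fold lower (-3.65 ± 0.22, adjusted p = 1.01e-12). Pygl, the glycogen phosphorylase, stood at 5.06, 5.21, 5.04, 5.05 and 5.23 in ConA + vehicle livers against 7.67 to 8.07 in untreated livers and was 6.92-fold lower (-2.79 ± 0.12, adjusted p = 1.14e-14). Gys2, the glycogen synthase, stood at 3.20, 3.34, 3.35, 3.38 and 3.78 in ConA + vehicle livers against 5.33 to 5.67 in untreated livers and was 4.24-fold lower (-2.08 ± 0.14, adjusted p = 4.37e-12). Its second probe gave -1.91 ± 0.15. The transcripts of the enzyme that builds glycogen and of the one that breaks it down thus both fell, and in neither did the groups overlap.

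G6pc was 13-fold lower at 24 hr (-3.70 ± 0.48, adjusted p = 4.08e-07), with 3.60, 3.01, 2.69, 3.13 and 4.20 in ConA + vehicle livers. It stood below every untreated liver and above every ConA + vehicle liver at 3 hr. Fbp1 was 2.77-fold lower (-1.47 ± 0.14, adjusted p = 2.65e-09), with 7.68 to 8.34 in ConA + vehicle livers against 9.33 to 9.61 in untreated livers. Ppp1r3c was 3.48-fold lower (-1.80 ± 0.33, adjusted p = 3.64e-05), with 2.01 to 2.68 in ConA + vehicle livers against 3.86 to 4.51 in untreated livers. With the slide as a fixed block these 6 genes kept their calls, with adjusted p from 6.55e-08 for Pygl to 0.0419 for Ppp1r3c.

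The calls of Pck1 and Ppp1r3g at 24 hr were weak, and their groups overlapped. Pck1 was 1.60-fold lower (-0.68 ± 0.27, adjusted p = 0.0276), with 7.04, 6.35, 6.53, 6.99 and 7.36 in ConA + vehicle livers against 8.03, 7.11, 7.18, 7.78 and 7.60 in untreated livers. With the slide as a fixed block Pck1 stood at 0.03 (adjusted p = 0.967), and it was not called with the slide as a random block (-0.45, adjusted p = 0.283), quantile normalization (-0.30, adjusted p = 0.275) or the series matrix values (-0.34, adjusted p = 0.245). Its call was also lost without untreated replicate 1 (-0.56) or 4 (-0.62) and without ConA + vehicle 24 hr replicate 2 (-0.56) or 3 (-0.60). Ppp1r3g was 2.59-fold lower (-1.37 ± 0.52, adjusted p = 0.0238), but not called with the slide as a fixed block (-0.93, adjusted p = 0.472) or random block (-1.15, adjusted p = 0.160), with the series matrix values (-1.03, adjusted p = 0.0850), without slide 2 (-1.12, adjusted p = 0.0711), or without untreated replicate 2 (-1.12) or 3 (-1.05). Ppp1r3b differed by -0.35 ± 0.16 and was not called (adjusted p = 0.0565). It was called without untreated replicate 2 (-0.40) or 3 (-0.40) and without ConA + vehicle 24 hr replicate 5 (-0.45).

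Hepatocyte markers were lower in 7 of 9 and higher in 2 of 9 at 24 hr, with a median change of -0.99. The 2 higher were Hpx (0.79) and Fgb (0.26). Summed hepatocyte levels were 4369 to 5702 in ConA + vehicle livers against 6066 to 7077 in untreated livers. All 8 periportal and all 8 pericentral markers fell. Summed periportal levels were 537 to 762 in ConA + vehicle livers against 2267 to 2681 in untreated livers, and summed pericentral levels were 183 to 312 against 1119 to 1264. Neutrophil markers were higher in 8 of 10, with a median change of 5.76 over the 10 and sums of 261 to 393 in ConA + vehicle livers against 116 to 128 in untreated livers. The part of these shifts in the changes of the 9 genes was not tested.

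From 3 to 24 hr after ConA with vehicle, the genes moved in opposite directions. G6pc was 25.9-fold higher at 24 hr than at 3 hr (4.69 ± 0.48, adjusted p = 9.49e-09). It was 28.6-fold higher within slide 3, where 1 array at 24 hr stood against 2 at 3 hr. Ppp1r3g was 5.74-fold higher (2.52 ± 0.52, adjusted p = 1.78e-04), with 3 of 5 arrays at 3 hr well above background, and 1.71-fold higher with the normexp background correction. Slc2a2 was 7.44-fold lower (-2.90 ± 0.22, adjusted p = 4.63e-11), Pygl 4.89-fold lower, Gys2 3.97-fold lower and Fbp1 2.47-fold lower. With quantile normalization the change of Fbp1 was -0.66 on the log2 scale, against -1.30 without it. In all 3 genes were higher and 4 lower, against 33.2% and 35.3% of all genes, and groups did not overlap in 6 of the 9, against 52.3% of all genes. Ppp1r3c was the remaining gene called higher (0.74 ± 0.33, adjusted p = 0.0465), but not with the slide as a fixed block (0.71, adjusted p = 0.237). That call was also lost without ConA + vehicle 24 hr replicate 2, 3 or 5 or ConA + vehicle 3 hr replicate 1, 2, 4 or 5, where the change was 0.58 to 0.77. Pck1 (-0.21 ± 0.27) and Ppp1r3b (-0.33 ± 0.16) were not called, although Ppp1r3b was called without ConA + vehicle 24 hr replicate 5 (-0.43) or ConA + vehicle 3 hr replicate 1 (-0.42). This comparison shares the ConA + vehicle livers with the others.

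The comparison of ConA + BW245C with ConA + vehicle livers at 3 hr asked what the DP1 agonist changed early. G6pc and Ppp1r3g, both of which had fallen steeply after ConA with vehicle, were higher with BW245C; the comparison with untreated livers uses the same ConA + vehicle livers. In all 4 of the 9 genes were called higher and none lower, where 11.8% of all genes were higher and 16.9% lower. The median change was 0.13 for the 9 genes and -0.04 for all genes. The groups did not overlap in 2 of the 9 genes, G6pc and Ppp1r3g, against 13.5% of all genes.

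G6pc had levels of 0.87, 0.38, 1.01, 0.27 and 3.85 in ConA + BW245C livers at 3 hr, against -1.69, -1.73, -0.95, -1.55 and -0.93 in ConA + vehicle livers. Every ConA + BW245C liver lay above every ConA + vehicle liver, and 1 of them, replicate 5, lay far above the other 4. The change was 2.64 ± 0.48, or 6.25-fold higher (adjusted p = 4.0e-04). Without ConA + BW245C replicate 5 it was 4.00-fold (2.00, adjusted p = 1.95e-04). With the slide as a fixed block it was 6.14-fold (adjusted p = 0.0132), and 5.70-fold within slide 3, which held all 5 ConA + BW245C livers and 2 ConA + vehicle livers. The ConA + BW245C livers still lay below all untreated livers, the lowest of which stood at 6.36. Mean G6pc was 1.28 ± 1.47 in ConA + BW245C and -1.37 ± 0.40 in ConA + vehicle livers at 3 hr, 4.00 ± 0.67 in ConA + BW245C and 3.33 ± 0.59 in ConA + vehicle livers at 24 hr, and 7.03 ± 0.42 in untreated livers (SD, n = 5 each). By level, untreated livers were highest, then ConA + BW245C and ConA + vehicle at 24 hr, then ConA + BW245C and last ConA + vehicle at 3 hr. Of the neighbours in that order, the 2 groups at 24 hr overlapped, and replicate 5 of ConA + BW245C at 3 hr lay within the range of ConA + vehicle livers at 24 hr.

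Ppp1r3g had levels of -0.41, -1.84, -1.15, -1.97 and -0.56 in ConA + BW245C livers at 3 hr, against -5.58, -3.88, -3.18, -4.47 and -3.99 in ConA + vehicle livers. There was no overlap. The ConA + BW245C livers lay within the range of the untreated ones, but that range reached low only through untreated replicate 4 (-2.26). ConA + BW245C replicates 2, 3 and 4 lay below every other untreated liver. The means were -1.19 in ConA + BW245C and -0.32 in untreated livers. Ppp1r3g was 8.18-fold higher (3.03 ± 0.52, adjusted p = 2.30e-04), 8.21-fold with the slide as a fixed block (adjusted p = 0.00863) and 8.23-fold within slide 3. Only 3 of the 5 ConA + vehicle arrays were well above background for Ppp1r3g, and with the normexp background correction it was 2.39-fold higher (adjusted p = 0.00309). Of the other glycogen subunit genes, 1 was not called and 1 was called by a narrow margin. Ppp1r3c differed by -0.40 ± 0.33 (adjusted p = 0.373), with 0.68, 0.50, 0.38, 2.53 and 1.89 in ConA + BW245C livers. Ppp1r3b was called higher, by 1.34-fold (0.42 ± 0.16, adjusted p = 0.0479), with 7.69 to 8.44 in ConA + BW245C livers and 7.28 to 7.95 in ConA + vehicle livers.

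Pck1, the carboxykinase, had levels of 7.67, 7.62, 7.90, 7.30 and 8.44 in ConA + BW245C livers at 3 hr, against 6.65, 7.21, 7.21, 6.86 and 7.40 in ConA + vehicle livers. Only replicate 4 of ConA + BW245C fell within the ConA + vehicle range. The call of 1.64-fold higher was narrow (0.72 ± 0.27, adjusted p = 0.0477) and, like that of Ppp1r3b, was lost with the slide as a fixed block (Pck1 0.78, adjusted p = 0.149, and Ppp1r3b 0.23, adjusted p = 0.463). Within slide 3 Pck1 was 1.57-fold and Ppp1r3b 1.11-fold higher. The Pck1 call was lost without ConA + BW245C replicate 1, 2, 3 or 5 or ConA + vehicle replicate 1, 2, 3 or 4 (0.55 to 0.76). The Ppp1r3b call was lost without ConA + BW245C replicate 2, 3, 4 or 5 or ConA + vehicle replicate 1, 2 or 3 (0.33 to 0.46). Fbp1 (-0.16 ± 0.14), Gys2 (-0.08 ± 0.14), Pygl (0.13 ± 0.12) and Slc2a2 (0.11 ± 0.22) were not called, and the widest of their 95% intervals, that of Slc2a2, ran from -0.34 to 0.56.

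At this time none of the 10 neutrophil markers and none of the 8 pericentral markers was called between ConA + BW245C and ConA + vehicle livers, and 2 of 9 hepatocyte markers were lower. Summed neutrophil levels were 169 to 266 in ConA + BW245C livers against 178 to 298 in ConA + vehicle livers, and summed hepatocyte levels were 7133 to 8264 against 7552 to 9699. Their part in the changes was not tested.

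**Figure D2:**
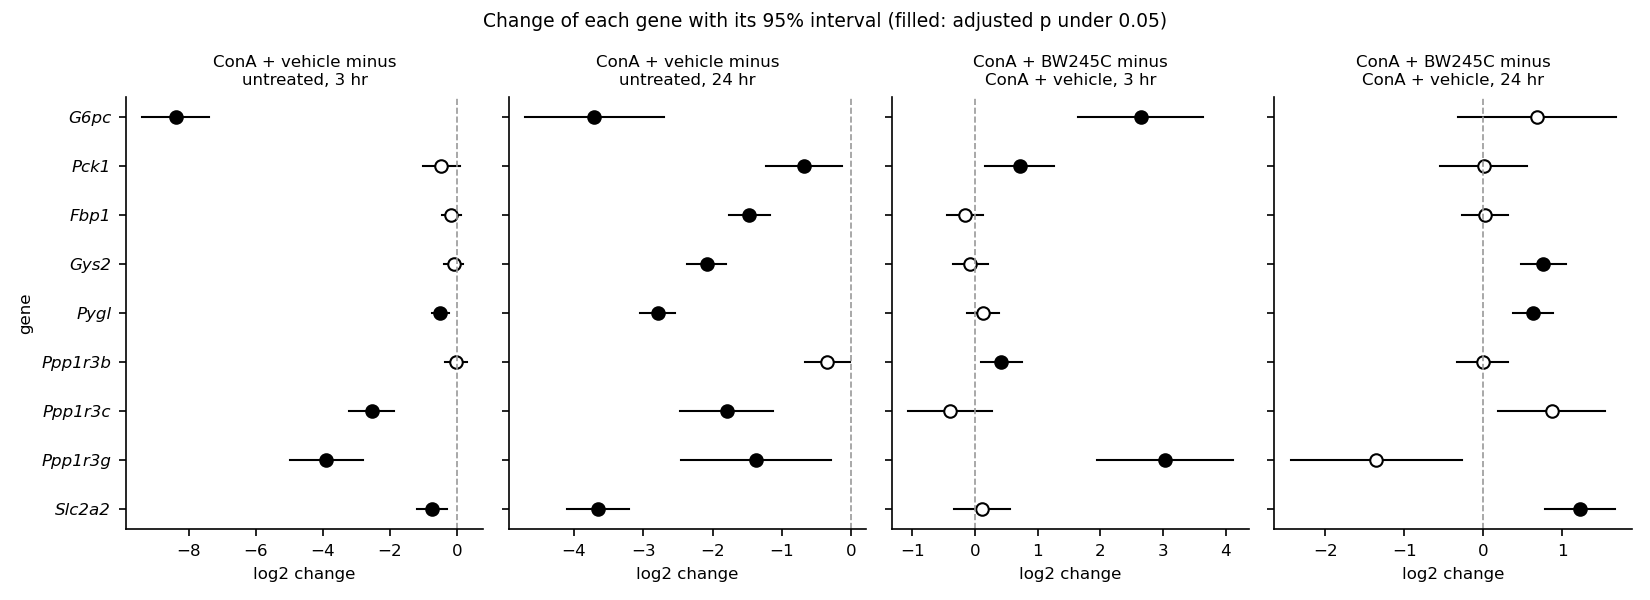
Log2 change of each of the 9 genes with its 95% interval, for ConA + vehicle minus untreated and ConA + BW245C minus ConA + vehicle at 3 hr and 24 hr; filled points have an adjusted p under 0.05, and each panel has its own scale. The agonist changes at 3 hr include those of Ppp1r3g (3.03) and G6pc (2.64), and the genes called at 24 hr are Slc2a2 (1.22), Gys2 (0.76) and Pygl (0.63), while the open points of Ppp1r3g (-1.36) and Ppp1r3c (0.86) were not called.

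The comparison of ConA + BW245C with ConA + vehicle livers at 24 hr asked what the agonist changed later, and a different group of genes was called. Slc2a2, Gys2 and Pygl were higher with BW245C; here too the ConA + vehicle livers are those of the comparison with untreated livers. In all 3 of the 9 genes were higher and none lower, where 17.6% of all genes were higher and 8.95% lower, and the median change was 0.63 for the 9 genes against 0.01 for all genes. Groups did not overlap in 4 of the 9 genes, Gys2, Pygl, Ppp1r3c and Ppp1r3g, against 17.4% of all genes.

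Slc2a2 had levels of 3.09, 3.71, 3.25, 2.52 and 2.60 in ConA + BW245C livers at 24 hr, against 1.78, 1.76, 1.28, 1.68 and 2.56 in ConA + vehicle livers. The transcript was higher in all ConA + BW245C livers than in 4 of the 5 ConA + vehicle livers, and replicate 5 of ConA + vehicle overlapped. The change was 2.33-fold (1.22 ± 0.22, adjusted p = 2.69e-04), and 2.44-fold within slide 4. Gys2 stood at 4.14, 4.51, 4.33, 3.82 and 4.03 in ConA + BW245C livers against 3.20, 3.34, 3.35, 3.38 and 3.78 in ConA + vehicle livers, with no overlap. It was 1.69-fold higher (0.76 ± 0.14, adjusted p = 2.90e-04) and 1.62-fold within slide 4, and its second probe gave 0.64 ± 0.15. Pygl stood at 5.53, 5.95, 6.22, 5.47 and 5.57 in ConA + BW245C livers against 5.06, 5.21, 5.04, 5.05 and 5.23 in ConA + vehicle livers, with no overlap, and was 1.54-fold higher (0.63 ± 0.12, adjusted p = 6.74e-04) and 1.43-fold within slide 4. All 3 genes kept their calls with the slide as a fixed block (adjusted p = 6.96e-04, 0.00134 and 0.00189 for Slc2a2, Gys2 and Pygl), and all ConA + BW245C livers stayed below all untreated livers in all 3.

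Ppp1r3c and Ppp1r3g came close to a call in opposite directions. Ppp1r3c stood at 3.11, 3.55, 3.30, 2.92 and 3.13 in ConA + BW245C livers against 2.09, 2.37, 2.68, 2.01 and 2.54 in ConA + vehicle livers (0.86 ± 0.33, adjusted p = 0.0527). Ppp1r3g stood at -3.34, -4.46, -2.83, -2.26 and -2.38 in ConA + BW245C livers against -1.27, -2.04, -1.83, -1.32 and -2.02 in ConA + vehicle livers (-1.36 ± 0.52, adjusted p = 0.0583). In neither did the groups overlap, and ConA + BW245C replicate 2 was not well above background for Ppp1r3g. Both were called when only these groups were fitted (adjusted p = 0.00614 and 0.0277). Ppp1r3g was also called without ConA + BW245C replicate 4 (-1.56) or 5 (-1.53) and Ppp1r3c without ConA + BW245C replicate 4 (0.93). G6pc differed by 0.67 ± 0.48 (adjusted p = 0.314, interval -0.33 to 1.67), and Pck1, Fbp1 and Ppp1r3b by at most 0.02 in size.

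Markers of the other cells and zones moved in the same direction as the 3 called genes or against it. Pericentral markers were higher with BW245C in 6 of 8, with sums of 397 to 749 in ConA + BW245C livers against 183 to 312 in ConA + vehicle livers. Periportal markers were higher in 5 of 8, with sums of 650 to 953 against 537 to 762, and hepatocyte markers in 4 of 9, with sums of 5064 to 6434 against 4369 to 5702. Neutrophil markers were lower in 7 of 10, with a median change of -1.70 and sums of 134 to 210 in ConA + BW245C livers against 261 to 393 in ConA + vehicle livers. The part of these shifts in the changes of Slc2a2, Gys2 and Pygl was not tested.

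Whether the agonist effect differed between the times was tested as the change with BW245C at 24 hr minus that at 3 hr. In all 4 genes were higher in this difference and 2 lower, where 19.2% of all genes were higher and 10.8% lower. For Ppp1r3g the difference was -4.39 ± 0.74 (adjusted p = 3.59e-04), as its level with BW245C was above ConA + vehicle at 3 hr and below it at 24 hr. Of its arrays, 4 of 5 of ConA + BW245C at 24 hr and 3 of 5 of ConA + vehicle at 3 hr were well above background, and with the normexp background correction the difference was -1.86 (adjusted p = 0.00236). Slc2a2 (1.11 ± 0.31, adjusted p = 0.0106) and Gys2 (0.84 ± 0.19, adjusted p = 0.00341) differed in favour of 24 hr. These 3 differences were also called with the slide as a fixed block, for which the adjusted p was 0.0129 for Ppp1r3g, 0.0488 for Slc2a2 and 0.0459 for Gys2.

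The differences of G6pc (-1.97 ± 0.68, adjusted p = 0.0343), Pygl (0.50 ± 0.17, adjusted p = 0.0332) and Ppp1r3c (1.26 ± 0.46, adjusted p = 0.0424) were called without the block and not with it (adjusted p = 0.259, 0.325 and 0.252). With normexp, G6pc (-1.47, adjusted p = 0.0802) and Pygl (0.33, adjusted p = 0.111) were not called. Pygl and Ppp1r3c were not called with quantile normalization (0.21, adjusted p = 0.319, and 1.17, adjusted p = 0.0629). Nor were they with the series matrix values (adjusted p = 0.173 and 0.1). The calls of all 3 genes were also lost without single mice. For G6pc these were ConA + BW245C 24 hr replicates 1, 4 and 5, ConA + vehicle 24 hr replicates 1 and 5 and ConA + vehicle 3 hr replicates 1 and 2 (adjusted p from 0.0502 to 0.0631), and without ConA + BW245C 3 hr replicate 5 the difference was -1.33 and still called (adjusted p = 0.0310). For Pygl they were ConA + BW245C 24 hr replicates 2 and 3, ConA + vehicle 24 hr replicates 1, 3 and 4, ConA + BW245C 3 hr replicate 3 and ConA + vehicle 3 hr replicates 2 and 3 (adjusted p from 0.0519 to 0.0671). For Ppp1r3c they were ConA + BW245C 24 hr replicates 2, 3 and 5, ConA + vehicle 24 hr replicates 1, 2 and 4, ConA + BW245C 3 hr replicates 1, 2 and 3 and ConA + vehicle 3 hr replicates 3 and 5 (adjusted p from 0.0517 to 0.0885). Pck1 (-0.71 ± 0.38), Fbp1 (0.18 ± 0.20) and Ppp1r3b (-0.44 ± 0.22) showed no called difference between the times.

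The other genes of hepatic glucose output, taken as a list of 23 of which 21 were measured, fell in 14 and rose in 2 at 24 hr after ConA with vehicle, and fell in 6 and rose in 3 at 3 hr. Their median change was -0.78 at 24 hr, against -0.08 for all genes. The counts of this and the following lists are to be read beside the shares of all genes. After ConA with vehicle 25% rose and 37% fell at 3 hr, and 29.8% rose and 39.1% fell at 24 hr. With BW245C 11.8% were higher and 16.9% lower than with vehicle at 3 hr, and 17.6% higher and 8.95% lower at 24 hr. Among the decreases at 24 hr were those of the aminotransferases Gpt, 4.75-fold, and Got1, 4.47-fold, and of the malate dehydrogenase Mdh1, 2.94-fold. With BW245C at 24 hr 7 of the 21 were higher and 3 lower than with vehicle, among them Gpt (2.19-fold higher, adjusted p = 2.42e-05) and Mdh1 (1.44-fold higher). At 3 hr 3 were higher and 2 lower. G6pc3, a glucose 6-phosphatase that many tissues express, was 2.55-fold lower at 3 hr after ConA with vehicle, against the 337-fold of G6pc.

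Of 15 measured genes of glycogen synthesis and breakdown, 10 fell and 2 rose at 3 hr after ConA with vehicle, and 8 fell and 3 rose at 24 hr, with medians of -0.42 and -0.53. With the series matrix values 7 fell and 7 rose at 24 hr. Nhlrc1, the malin ubiquitin ligase, which acts on proteins of glycogen metabolism, was 9.86-fold lower at 3 hr, and the phosphorylase Pygb 4.97-fold and the glycogen binding protein Stbd1 3.40-fold lower. At 24 hr the branching enzyme Gbe1 was 3.60-fold lower, while Gys1, the glycogen synthase of muscle and many other tissues, was 3.17-fold higher. With BW245C at 24 hr Gys1 was 1.71-fold lower (adjusted p = 1.96e-04) and Gys2 higher than with vehicle, and Gaa (1.47-fold) and Phka2 (1.71-fold) were higher. In all 4 of the 15 were higher and 1 lower with BW245C at 24 hr, and 1 was higher and none lower at 3 hr, Pygm (1.37-fold).

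Among 9 measured phosphatase 1 partners and glycogen kinases, 6 fell and 1 rose at 24 hr after ConA with vehicle and 3 fell and 1 rose at 3 hr. At 24 hr 3 fell and 2 rose with quantile normalization, and 2 fell and 2 rose with the series matrix values. Ppp1r3d, another glycogen targeting subunit, was the gene that rose at both times (1.31-fold and 1.90-fold). It was 1.42-fold higher with BW245C than with vehicle at 3 hr and 1.53-fold lower at 24 hr, and its difference between the times was -1.12 ± 0.22 (adjusted p = 0.00132). With quantile normalization neither its rise at 3 hr (0.33, adjusted p = 0.089) nor its difference with BW245C at 3 hr (0.41, adjusted p = 0.0750) was called. Prkaa2, a catalytic subunit of the AMP-activated kinase, was 2.79-fold lower at 24 hr after ConA with vehicle and 1.45-fold higher with BW245C than with vehicle.

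Among glycolysis control genes the rises outnumbered the decreases at 24 hr, with 9 of 14 higher and 5 lower after ConA with vehicle and a median change of 1.41. Pfkfb3, which makes the activator of phosphofructokinase, had levels of 6.35 to 6.72 in ConA + vehicle livers at 3 hr against -0.55 to 0.50 in untreated livers, a 91.5-fold rise (adjusted p = 1.31e-15). With BW245C at 3 hr it was 3.01-fold lower than with vehicle (adjusted p = 1.45e-04), with levels of 4.25 to 5.77, and 5 of the 14 genes were lower and none higher, or 2 lower and none higher with the series matrix values. Hk2, an inducible hexokinase, was 13.8-fold higher at 3 hr after ConA with vehicle, and lower with BW245C than with vehicle by 1.66-fold at 3 hr and 2.24-fold at 24 hr, the first of which was not called with the series matrix values (adjusted p = 0.0645). Pklr, the pyruvate kinase of liver, was 15.2-fold lower at 24 hr, and Pkm, the pyruvate kinase of most other tissues, was 14.5-fold higher. With BW245C at 24 hr 5 of the 14 were higher and 6 lower than with vehicle.

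Some hexose transporters rose where Slc2a2 fell. At 24 hr after ConA with vehicle Slc2a3 was 18.2-fold, Slc2a6 17.8-fold and Slc2a1 8.42-fold higher, and the other 4 of the 7 measured were lower. Of these, Slc2a9 fell 4.1-fold, Slc2a8 2.60-fold and Slc2a5 2.18-fold, and Slc2a4 was well above background on no ConA + vehicle array at 24 hr. The median change of the 7 was -1.12. At 3 hr after ConA with vehicle 3 of the 7 were higher and 3 lower. With BW245C at 24 hr Slc2a3 was 2.69-fold and Slc2a1 2.18-fold lower than with vehicle, and Slc2a9 (2.06-fold) and Slc2a8 (1.78-fold) were higher. With BW245C at 3 hr 1 of the 7 was called against vehicle, Slc2a1, which was 2.37-fold lower (adjusted p = 0.00178).

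Of 24 transcriptional regulators of gluconeogenesis, 9 rose and 9 fell at 3 hr after ConA with vehicle, and 4 were higher and 11 lower with BW245C than with vehicle. Atf3, a stress factor of the CREB family, rose 119-fold after ConA with vehicle and was 3.62-fold lower with BW245C than with vehicle at 3 hr. Crtc2, the CREB coactivator, rose 2.46-fold and Cebpb 5.61-fold, and Nr0b2, a repressor induced by bile acids, fell 20.6-fold. With BW245C at 3 hr Cebpa (1.80-fold), Trib1 (2.07-fold) and Trib3 (2.76-fold) were lower. Ppargc1a, the PGC-1alpha coactivator, was singled out here after its values were seen. It was 1.53-fold higher with BW245C than with vehicle at 3 hr (0.62 ± 0.20, adjusted p = 0.0235). After ConA with vehicle at 3 hr it differed by 0.08 ± 0.20 (adjusted p = 0.741). Of the 4 regulators called higher with BW245C at 3 hr it had the largest adjusted p. The others were Hnf4a (1.48-fold, adjusted p = 6.94e-04), Ppargc1b (2.45-fold, adjusted p = 0.00762) and Foxa2 (1.61-fold, adjusted p = 0.0118). At 24 hr 4 of the 24 were higher and 4 lower with BW245C than with vehicle, Foxa2 among the higher (1.64-fold). Of all genes 17.6% were higher and 8.95% lower, so the count of higher genes does not set this list apart.

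Of 16 hormone receptor and signalling genes, 4 fell and 9 rose at 3 hr after ConA with vehicle. Irs1, an adaptor of the insulin receptor, had levels of -2.34 to -1.37 in ConA + vehicle livers against 2.36 to 2.77 in untreated livers and was 20.2-fold lower, and it was 1.82-fold higher with BW245C than with vehicle (adjusted p = 0.00467). Socs3, which inhibits cytokine and insulin signalling, rose 102-fold, and Pde4b, a phosphodiesterase that breaks down cAMP, rose 17.6-fold. With BW245C at 3 hr Socs3 was 2.20-fold and Pde4b 1.78-fold lower than with vehicle, and 6 of the 16 were lower and 1 higher. At 24 hr Gcgr, the glucagon receptor, was 3.46-fold lower after ConA with vehicle and 1.70-fold higher with BW245C than with vehicle (adjusted p = 4.24e-04), and 4 of the 16 were higher and 5 lower with BW245C.

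**Figure D3:**
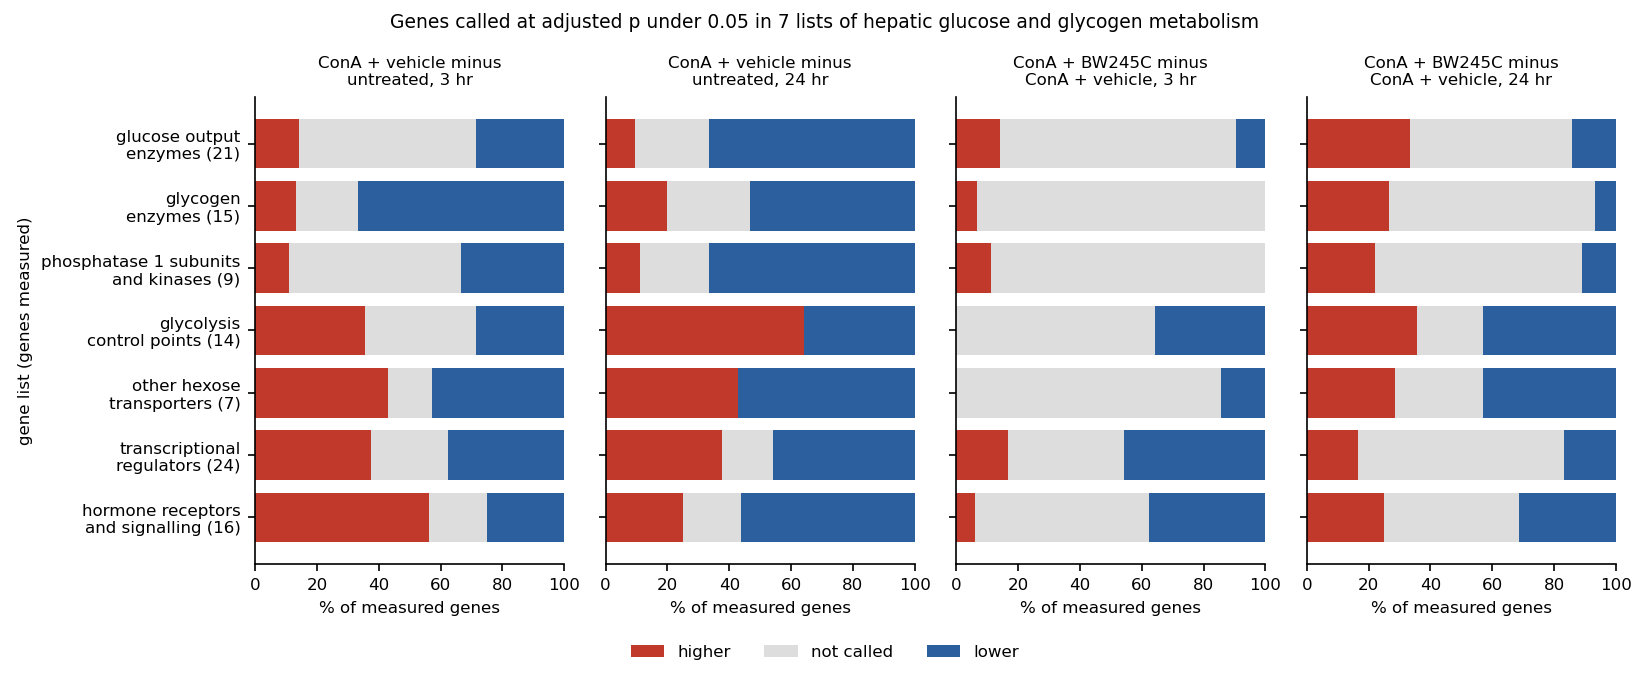
Share of measured genes called higher (red), not called (grey) and lower (blue) at an adjusted p under 0.05 in 7 lists, for ConA + vehicle minus untreated and ConA + BW245C minus ConA + vehicle at 3 hr and 24 hr; the number of genes measured stands beside each list name. Glucose output genes were lower in 14 of 21 at 24 hr after ConA with vehicle, against 39.1% of all genes. No glycolysis control gene was higher with BW245C at 3 hr and 5 of 14 were lower, against 11.8% and 16.9% of all genes.

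Likeness of course was measured as the root mean square difference, over the 4 ConA groups, between the mean changes of 2 genes from untreated livers. By this measure no other tested gene came near the course of G6pc: the closest, Chrna4, differed by 2.09 and the next, Sox18, by 2.20. The difference is not scaled to the size of the changes, so it tends to be large for genes with large changes. It tends to be small for genes that changed little. G6pc changed by -8.40 to -3.03 over the 4 groups and Ppp1r3b by -0.36 to 0.40. For Ppp1r3g the closest were Tspan15 (0.82) and Spsb4 (0.92). The closest genes to the remaining members differed by less, such as Susd2 (0.03) and Tmem91 (0.05) for Ppp1r3b. They were Lama2 (0.04) and Sucla2 (0.10) for Fbp1, and Gchfr (0.06) and Haao (0.10) for Pygl. For Gys2 they were Aldh6a1 and Iah1 (0.08 each), for Pck1 Igsf23 and Btbd11 (0.10 each), for Slc2a2 Lrit1 (0.13) and Lrit2 (0.14), and for Ppp1r3c Tcim (0.23) and Gm14207 (0.24).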

How the data were processed

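The deposited scanner files hold, per the file headers, Agilent Feature Extraction output of single-colour arrays, and the intensity used, the deposited processed signal, was already background-corrected by that software. The headers give its version as 10.7.3.1 and the submitters' processing notes as 9.1. The probe design names the mouse build mm9. The deposited series matrix holds scaled intensities, which were taken to log2 and served as an alternative. For brighter spots they were the processed signal times a nearly constant factor on each array, from 2.42 to 3.29 over the arrays. How that factor was set is not given in the sources used here.

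Signals were taken to log2 and the 75th percentile of each array was subtracted. A probe was kept if at least 5 of the 25 arrays had it well above background (33504 of 55681), and the brightest named probe stood for each gene, which left 15101 genes. On each array 52.2% to 61.6% of spots were well above background, and none was saturated. RefSeq names gave a symbol to 26576 probes. One limma model (version 3.58.1, R 4.3.3, lmFit and eBayes) over the 5 groups gave all comparisons, with Benjamini-Hochberg adjustment over all genes. The code was tested on simulated data. Alternatives were the background correction, normalization, probe filter, slide and replicate blocks, groups fitted, variance trend and single mice left out.

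The 9 genes and all lists were chosen with earlier results of these data known. Named list genes were up to 4 called genes of each list with the smallest adjusted p in each comparison, and the 2 genes closest in course to each member; Ppargc1a was added after its values were seen. Some genes that this rule names are not reported here. The p-values measure the spread between mice of a group.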

Additional observations from a re-analysis of the deposited data

Results flagged for a closer look

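A single mouse stood apart in 2 of the 45 sets of 5 values examined, 1 set for each gene and group, by a gap test that chance alone meets in about 1 set in 20. G6pc in replicate 5 of ConA + BW245C at 3 hr was 3.85, where the other 4 livers of the group lay between 0.27 and 1.01. Slc2a2 in untreated replicate 1 was 5.20, where the other 4 untreated livers lay at 5.49 or above and at most at 5.56.

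The effect of BW245C differed between 24 hr and 3 hr, by the limma test of the difference itself, in 6 genes. The difference (24 hr minus 3 hr, log2) was -4.39 for Ppp1r3g, -1.97 for G6pc, 1.26 for Ppp1r3c, 1.11 for Slc2a2, 0.84 for Gys2 and 0.50 for Pygl. Those of Ppp1r3g, Slc2a2 and Gys2 were also called with the slide as a fixed block. Those of G6pc, Pygl and Ppp1r3c were not, and they also lost their calls under some choices of background correction or normalization.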

How the results depend on the processing

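Over 642 changes of the 9 genes under the alternatives, 550 kept their direction and their side of the threshold, 44 lost a call, 17 gained one and 31 turned direction. Of the turned changes, that of Pck1 at 24 hr after ConA with vehicle was a called value. The calls of G6pc, Ppp1r3g and Ppp1r3c at 3 hr after ConA with vehicle and of Slc2a2, Gys2 and Pygl with BW245C at 24 hr held in all that gave a value; a filter on all 25 arrays left out Ppp1r3g. The cause of the changes was not tested.

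The comparisons called 9364 genes (ConA + vehicle against untreated, 3 hr), 10403 (24 hr), 4323 (BW245C, 3 hr), 4012 (BW245C, 24 hr), 10336 (24 minus 3 hr) and 4536 (difference between the times). For BW245C at 3 hr 1770 genes were called with the slide as a fixed block, 2650 as a random block, 2190 with only the groups compared and 2028 without slide 2, an alternative chosen after seeing the data. For the difference between the times 928, 2107 and 2073 were called with the fixed block, the random block and without slide 2. Of the 9 genes, 2 were called for BW245C at 3 hr with either slide block, no probe filter, the replicate block or without slide 2. For BW245C at 24 hr 5 were called with only the groups compared or an intensity trend, and for the difference between the times 3 with either slide block or only the groups compared.

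Without single mice the counts of genes ran, in the order above, from 8751 to 9422, 9946 to 10184, 3134 to 5410, 2921 to 4341, 9942 to 10239 and 3252 to 5354, and those of the 9 genes from 5 to 5, 7 to 9, 2 to 4, 3 to 5, 6 to 7 and 3 to 6. Changes near 0 turned direction: Gys2 (-0.155 to 0.023) and Ppp1r3b (-0.093 to 0.073) at 3 hr after ConA with vehicle, and Pck1 (-0.171 to 0.214), Fbp1 (-0.068 to 0.164) and Ppp1r3b (-0.083 to 0.091) with BW245C at 24 hr.

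Other turned values were as follows. After ConA with vehicle, Gys2 (0.11) and Ppp1r3b (0.077) at 3 hr without slide 2, and at 24 hr Ppp1r3b with quantile normalization (0.05) and Pck1 with the fixed slide block (0.03). With BW245C at 3 hr, Gys2 with quantile normalization (0.023) and the series matrix (0.038), Fbp1 with the fixed block (0.093) and Slc2a2 without slide 2 (-0.097). With BW245C at 24 hr, Pck1 with normexp (-0.015), quantile (-0.104), matrix (-0.109), random block (-0.004) and without slide 2 (-0.171), Fbp1 with normexp (-0.075), quantile (-0.085), matrix (-0.09), fixed (-0.123) and random block (-0.049) and without slide 2 (-0.068), and Ppp1r3b with fixed (0.159) and random block (0.061). From 3 to 24 hr, Pck1 with quantile (0.253), matrix (0.237) and fixed block (0.289), and Ppp1r3b with quantile (0.181) and matrix (0.125). In the difference between the times, Fbp1 with normexp (-0.005), matrix (-0.047), fixed (-0.215) and random block (-0.017) and without slide 2 (-0.054).

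The series matrix moved the median of all genes by -0.106, 0.344, 0.115, -0.112, 0.45 and -0.226, and the share of called genes that were higher was 31.3%, 65.7%, 62.1%, 42.8%, 74.1% and 32%, against 40.3%, 43.2%, 41.1%, 66.3%, 48.5% and 64.1%. The fixed slide block gave 53.2% for BW245C at 24 hr. From 3 to 24 hr normexp moved the median by -0.113, quantile normalization by 0.102 and no probe filter by -0.141. No filter moved it by 0.161 at 3 hr after ConA with vehicle, and the fixed block by -0.114 in the difference between the times.

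Replicate numbers did not pair the mice: over 50 pairs of arrays with the same number the median correlation of deviations was -0.013, and 4 of 25 arrays correlated best with their own number. With the replicate block, adjusted p was 0.0538 for Pck1 and 0.0609 for Ppp1r3b with BW245C at 3 hr, 0.0567 for Ppp1r3c from 3 to 24 hr and 0.0529 for Ppp1r3c in the difference between the times. Ppp1r3g lay nearest to background of the 9 genes, which limits the precision of its low levels.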

Other observations

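Kupffer cell and endothelial markers were lower in ConA + vehicle than in untreated livers. Kupffer cell markers were lower in 4 of 9 at 3 hr and 7 of 9 at 24 hr, and sinusoidal endothelial markers were lower in 4 of 8 and higher in 1 at 3 hr, and lower in 6 and higher in 1 at 24 hr. T and NK lymphocyte markers were higher in 7 of 9 at 3 hr and 8 of 9 at 24 hr. With BW245C at 24 hr 1 Kupffer cell and 3 endothelial markers were higher than with vehicle and no lymphocyte marker was called, and at 3 hr 1 endothelial marker was higher, and 1 lymphocyte marker was higher and 2 lower.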
